A study of Mus musculus with 4 samples.

Results

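Peaks near microRNA genes are regions of open chromatin that lay within 5 kb of a gene annotated as a microRNA, and 1059 of the 87948 peaks counted in these hearts met that rule. The members were chosen by position alone: an interval on an autosome, within 5 kb of a RefSeq gene of biotype miRNA whose symbol starts with Mir, with the RefSeq table of assembly GRCm38.p6. The other 85553 autosomal peaks are the comparison where one is given. All 1059 members passed the filter on low counts and were tested.

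The assay was ATAC-seq, which reads open chromatin from the sites where a transposase can cut and tag DNA, in heart tissue of mice at postnatal day 14. There were 2 Carm1 mutant and 2 wild-type libraries, and the design text calls the hearts neonatal. Carm1 encodes an enzyme that methylates arginines in histones and in proteins of transcription, and the comparison is of accessibility between the genotypes. The labels state neither the altered part of Carm1 nor the allele, promoter, strain or sex, nor whether replicates were separate animals, so p-values measure the spread between these libraries. Counts in peaks came to 16740589 and 15945420 in mutant replicates 1 and 2, and to 17508230 and 19091969 in wild-type replicates 1 and 2. Heart tissue mixes cell types, so fewer cells of a type and less open DNA per cell cannot be told apart.

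MicroRNAs are short RNAs cut from hairpin precursors, and they guide Argonaute proteins to messenger RNAs that match their seed, the bases near the 5′ end. Many hairpins lie inside introns of protein-coding genes or long noncoding RNAs and are transcribed with them, so an open region beside a hairpin can belong to the host gene, to a promoter of the microRNA or to an enhancer. Cardiac muscle is known for a small group of such RNAs. Mir1a and Mir133a hairpins are transcribed together from paired loci, and the myosin microRNAs Mir208a, Mir208b and Mir499 lie within the myosin heavy chain genes Myh6, Myh7 and Myh7b.

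The mature sequences show how close these RNAs are to each other, and they are printed for some of the loci described below. The mature RNAs of Mir1a and Mir133a were not in the sequence set used and are not printed. They are from RefSeq (GRCm38.p6), 5′ to 3′, with the seed (bases 2 to 8) in capitals.
miR-208a-3p (Mir208a): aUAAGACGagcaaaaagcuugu
miR-208b-3p (Mir208b): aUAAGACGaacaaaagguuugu
miR-499-5p (Mir499): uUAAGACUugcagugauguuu
miR-128-3p (Mir128-1 and Mir128-2): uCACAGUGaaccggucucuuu
miR-148a-3p (Mir148a): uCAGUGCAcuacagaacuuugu
miR-210-3p (Mir210): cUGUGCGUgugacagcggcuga
miR-23a-3p (Mir23a): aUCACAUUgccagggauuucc
miR-27a-3p (Mir27a): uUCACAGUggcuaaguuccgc
miR-24-3p (Mir24-2): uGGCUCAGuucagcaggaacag
The miR-208a and miR-208b sequences share their seed and differ at 3 positions counted from the 5′ end (G10A, A16G and C18U, with the miR-208a base first). The seed of miR-499-5p differs from that of miR-208a at 1 position (G8U). Mir128-1 and Mir128-2 lie on chromosomes 1 and 9 and give the same mature RNA, and it is shown because both genes had a called peak. In the table of mature mouse microRNAs the miR-148a seed is shared by miR-148b and miR-152, and the miR-27a seed by miR-27b.

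The Mir1a-1 host gene, Mir1a-1hg, has its RefSeq start inside the widest peak of the Mir1a-1 locus (chr2:180384524-180391766). Its promoter window, 250 bases before to 50 after that start (chr2:180385354-180385653, plus strand, GRCm38.p6), is printed because accessibility was measured across it. Capitals mark CANNTG, the E-box bound by basic helix-loop-helix factors.
Mir1a-1hg promoter: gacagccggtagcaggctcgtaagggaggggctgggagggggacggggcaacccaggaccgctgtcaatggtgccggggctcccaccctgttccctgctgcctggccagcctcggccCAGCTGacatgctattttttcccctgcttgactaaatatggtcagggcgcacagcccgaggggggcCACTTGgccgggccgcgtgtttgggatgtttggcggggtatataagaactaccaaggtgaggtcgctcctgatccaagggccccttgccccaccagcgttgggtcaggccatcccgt
The window held 2 matches to CANNTG, a motif found in 72.3% of the 32851 RefSeq promoters of the same length. It held no match on either strand to the CArG box (1.63% of promoters), the MEF2 site (3.19%), AGATAA (11.2%), CATTCC (14.7%) or TATAAA (13.6%). These are matches of letters and are not measured sites. Only matches to the full patterns were counted, so near matches were left out. Those in this window include tatataag (for TATAAA) and ctaaatatgg (for the CArG box).

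Peaks near microRNA genes were wider and stronger than other peaks. Their median width was 746 bp, against 533 bp for all peaks, and their median level was 8.28 CPM (counts scaled to a normalized library of 1000000), against 5.53 CPM for the other autosomal peaks. A protein-coding gene end lay within 1 kb of 358 of them (33.8%), against 17.9% of the other peaks, and 851 lay inside a protein-coding or long noncoding RNA gene. The hairpin itself was overlapped by 169 peaks, and 360 lay within 1 kb of it. Relative to the direction of transcription, where RefSeq gave one, 416 lay upstream and 388 downstream.

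Of the 1090 autosomal microRNA genes, 568 (52.1%) had at least 1 peak within 5 kb and 522 had none. Among those with a peak, 262 had 1, the median was 2 and the highest number was 10. Clustered hairpins share peaks: 111 peaks had more than 1 microRNA gene within 5 kb, and up to 6. Members that share a peak are therefore not independent of each other. A peak-free window of 5 kb says nothing of promoters farther away.

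The share of listed microRNA genes with a peak varied across lists of known function. All 7 muscle microRNA genes had one, as did 15 of the 17 muscle-related genes, 10 of the 11 endothelial and vascular genes and 12 of the 16 fibroblast and stress genes. The cell cycle list had 9 of 11, the smooth muscle list 2 of 3 and Mir210, alone in the hypoxia list, had one too. The blood cell list, with 3 of 11, the neuronal list, with 2 of 10, and the imprinted Dlk1-Dio3 cluster, with 4 of 47, lay below the share over all microRNA genes. The lists are short, their members often share a peak, and no test of these shares was run.

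**Figure D1:**
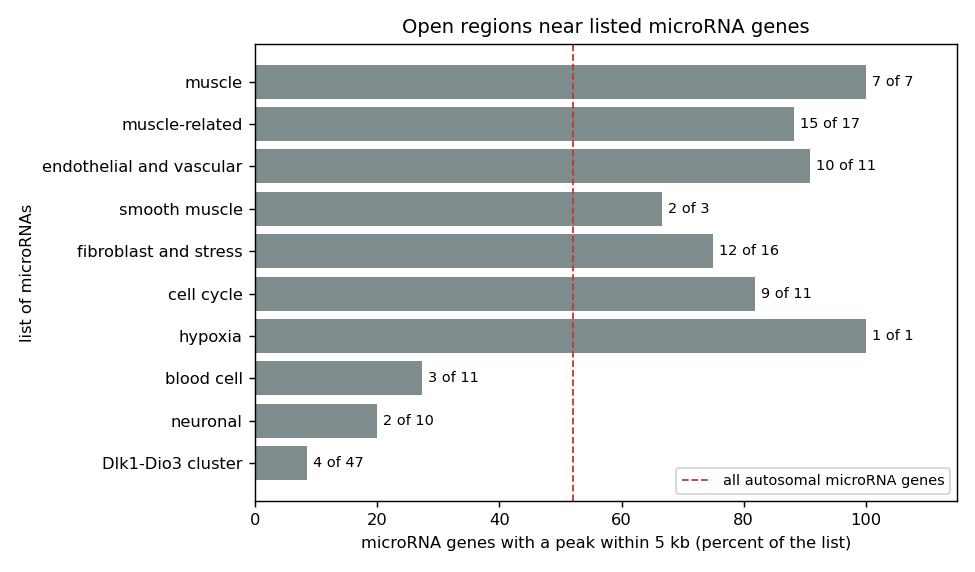
Share of autosomal microRNA genes with at least 1 peak within 5 kb (percent, x axis) for each of 10 lists (y axis), with the counts beside the bars and the share over all 1090 genes (52.1%) as a dashed line. The muscle list stands at 7 of 7 and the Dlk1-Dio3 cluster at 4 of 47.

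At the muscle microRNAs, 3 of 35 peaks were higher in Carm1 mutant hearts and none passed the threshold in the lower direction. Calls are from edgeR's quasi-likelihood test, fitted on all peaks with Benjamini-Hochberg adjustment over all of them and an adjusted p of 0.05. Over all peaks tested, 3.05% were called higher and 2.45% lower. In the same fit 11 of the 35 had an unadjusted p under 0.05 in the higher direction and 0 in the lower. Among all 1059 members these counts were 135 and 42, and over all peaks they were not taken. DESeq2 called 2 of the 35 higher and 0 lower, and limma voom 4 higher and 0 lower. Over all 87948 peaks DESeq2 called 1365 higher and 1008 lower, and limma voom 2092 and 1615. The count of 3 was 0 without wild-type replicate 2, 1 without wild-type replicate 1, 2 without mutant replicate 1 and 8 without mutant replicate 2. The log2 fold change, mutant over wild type, was above 0 at 33 of the 35, and its median was 0.33, against 0.00 over all peaks. Over the other settings 28 to 33 of the 35 stayed above 0, with 30 under scaling by total counts. In 20 peaks (57.1%) both mutant libraries lay above both wild-type libraries, a pattern seen in 25.8% of all peaks, and in 1 (2.86%) both lay below, against 25.7% of all peaks. Peaks of 1 locus share their DNA and are not replicates of each other.

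**Figure D2:**
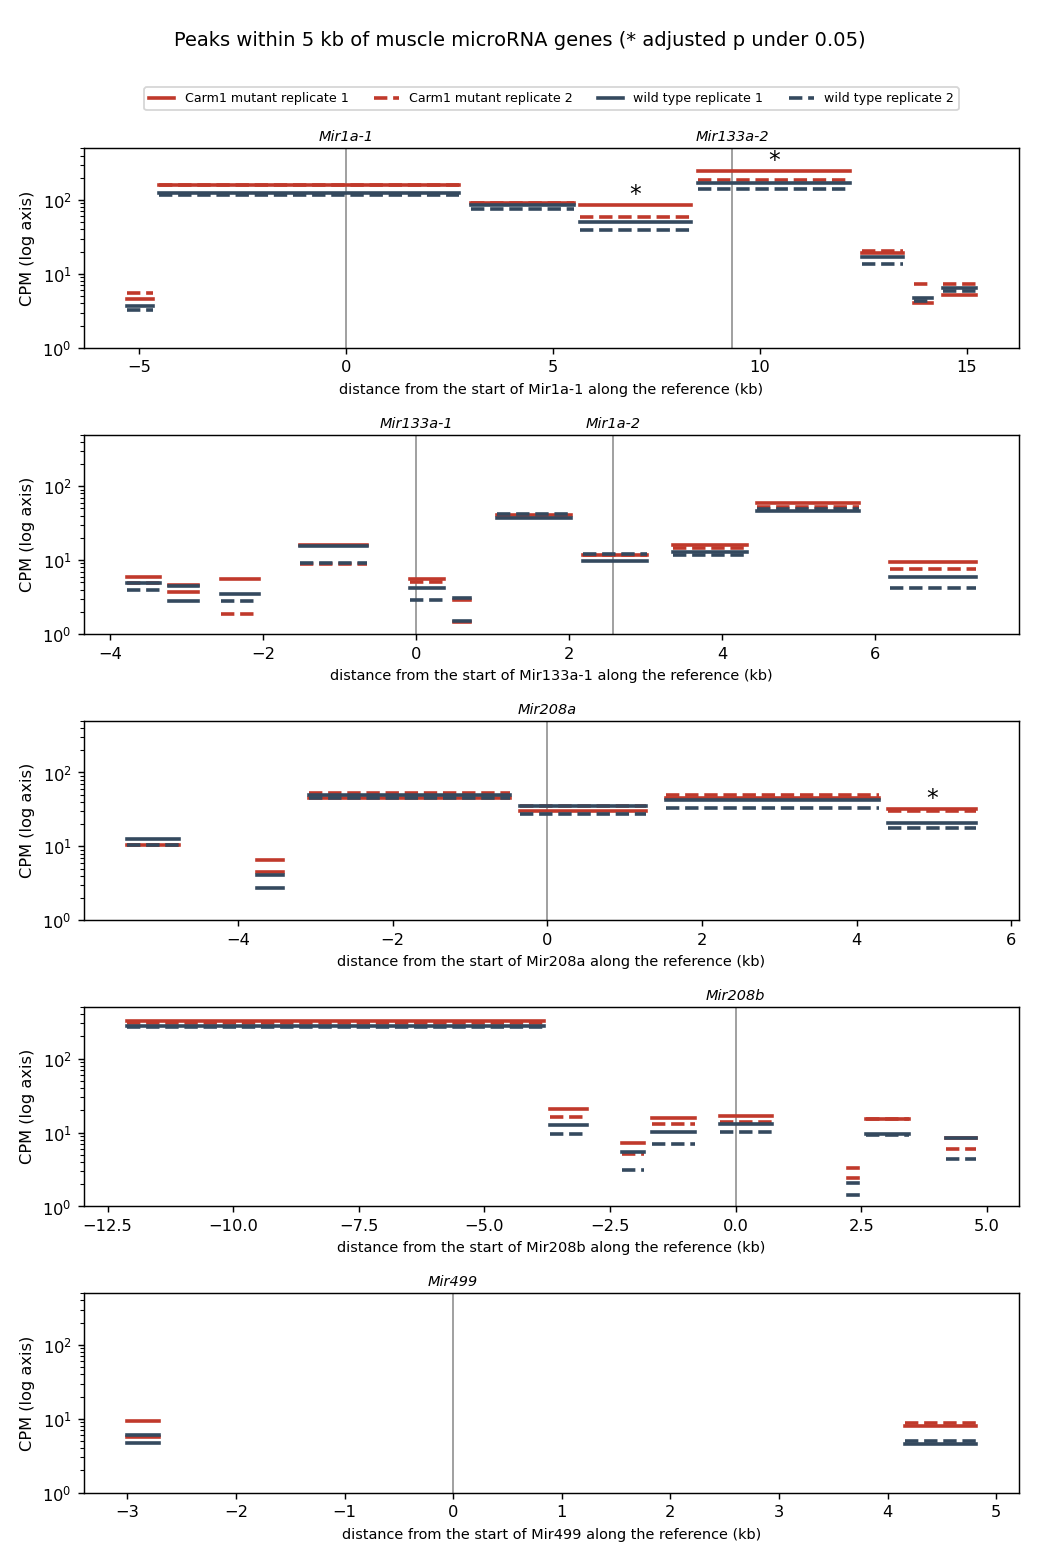
Position of each peak relative to a microRNA start (kb, x axis) and its level in each library (CPM, log y axis) at the 5 muscle microRNA loci, with Carm1 mutant libraries in red and wild-type libraries in dark blue. Solid lines are replicate 1 and dashed lines replicate 2, except in peaks of up to 400 bp, where all lines are solid, and asterisks mark the 3 peaks with an adjusted p under 0.05.

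The locus of Mir1a-1 and Mir133a-2, which make miR-1 and miR-133 and are known to act in muscle differentiation and proliferation, held 2 of the 3 higher peaks. Its 8 peaks cover 18.95 kb of chromosome 2. Summed over them, accessibility was 619.7 and 536 CPM in mutant replicates 1 and 2, against 456 and 401 CPM in the wild type. The genotypes did not overlap, and the sums gave 30.5 ± 3.12 CPM per kb of peak in the mutant and 22.6 ± 2.07 in the wild type (SD, n = 2 each), a log2 ratio of 0.43. An exact two-sided permutation test of 2 against 2 libraries can give no p below 0.333, so no p is given for such sums.

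The peak over the Mir133a-2 hairpin (chr2:180397554-180401218) was the strongest of the locus. It had 249 and 188 CPM in the mutant libraries, against 168 and 140.3 CPM in the wild-type libraries, a log2 fold change of 0.51 (standard error 0.13, edgeR adjusted p = 0.0327). Both mutant libraries lay above both wild-type libraries, with mutant replicate 1 farthest from the rest. The call was lost on leaving out mutant replicate 1 (edgeR adjusted p = 0.108, log2 fold change 0.29), wild-type replicate 1 (0.0634) or wild-type replicate 2 (0.377), and with DESeq2 (0.0699), and over all 11 alternatives adjusted p ranged from 2.11e-07 to 0.377.

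Between the hairpins, 996 bp from Mir133a-2, a further peak within Mir1a-1hg (chr2:180394709-180397383) had 86.3 and 58.4 CPM in the mutant libraries, against 49.9 and 39.0 CPM in the wild-type libraries. Its log2 fold change was 0.70 (standard error 0.17, edgeR adjusted p = 0.0205), and again the genotypes did not overlap. This call was lost on leaving out mutant replicate 1 (edgeR adjusted p = 0.0654, log2 fold change 0.39) or wild-type replicate 2 (0.272), with a range of 1.32e-09 to 0.272 over the 11 alternatives.

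The wide peak over the Mir1a-1 hairpin and the printed promoter (chr2:180384524-180391766, 7243 bp) fell just outside the threshold. It had 159 and 158 CPM in the mutant libraries and 123 and 118 CPM in the wild-type libraries, a log2 fold change of 0.40 (standard error 0.12, edgeR adjusted p = 0.0503). The mutant libraries were nearly equal and lay above both wild-type libraries. It passed without mutant replicate 1 (edgeR adjusted p = 0.019), without mutant replicate 2 (0.0141) and with limma voom (0.026), in a range of 0.0128 to 0.398 over the 11 alternatives. The other 5 peaks of the locus had log2 fold changes between 0.02 and 0.53 (edgeR adjusted p from 0.279 to 0.973). They include the next peak downstream (chr2:180392067-180394563), at 92.3 and 91.4 CPM in the mutant libraries and 84.6 and 76.3 CPM in the wild-type libraries.

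The paired locus of Mir1a-2 and Mir133a-1, within the ubiquitin ligase gene Mib1 and the host RNA gene Mir133a-1hg on chromosome 18, had 11 peaks and no call. By edgeR 1 of the 11 had an unadjusted p under 0.05, and DESeq2 and limma voom called 0. Summed accessibility was 178 and 152 CPM in the mutant libraries, against 147 and 143 CPM in the wild-type libraries, a log2 ratio of 0.19 over 8.09 kb. The sums did not overlap, although the mutant libraries differed from each other by more than the nearest mutant and wild-type libraries did. Over the Mir1a-2 hairpin the genotypes overlapped, at 11.9 and 11.8 CPM in the mutant and 9.73 and 12.3 CPM in the wild type. Over the Mir133a-1 hairpin they did not, at 5.54 and 5.11 CPM in the mutant and 4.13 and 2.89 CPM in the wild type. Their log2 fold changes were 0.10 (standard error 0.22, edgeR adjusted p = 0.836) and 0.60 (standard error 0.30, edgeR adjusted p = 0.251). The peak with the lowest p (chr18:10789098-10790229) had 9.37 and 7.57 CPM in the mutant libraries and 5.88 and 4.18 CPM in the wild-type libraries (log2 fold change 0.75, edgeR adjusted p = 0.102). It passed without mutant replicate 2, and over the 11 alternatives its adjusted p in edgeR and the other tools ranged from 0.0353 to 0.542. Whether the loci on chromosomes 2 and 18 differ in their response was not tested.

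Mir208a, in an intron of Myh6, the gene of the alpha myosin heavy chain of the adult mouse heart, had 6 peaks and 1 call. The called peak (chr14:54953472-54954607), 4330 bp upstream of the hairpin and inside Myh6, had 32.2 and 30.0 CPM in the mutant libraries, against 20.9 and 17.6 CPM in the wild-type libraries. This is a log2 fold change of 0.69 (standard error 0.17, edgeR adjusted p = 0.0218), and the genotypes did not overlap. Leaving out wild-type replicate 1 (edgeR adjusted p = 0.0771) or replicate 2 (0.288) ended the call, with a range of 0.00175 to 0.288 over the 11 alternatives. Over the hairpin itself (chr14:54948706-54950335) the genotypes overlapped, at 29.7 and 34.8 CPM in the mutant and 35.1 and 27.5 CPM in the wild type, a log2 fold change of 0.04 (standard error 0.17, edgeR adjusted p = 0.915). Over all 6 peaks the sum was 167 and 184 CPM in the mutant and 163 and 137 CPM in the wild type, a log2 ratio of 0.22.

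Mir208b, in an intron of Myh7, the gene of the beta myosin heavy chain that the mouse ventricle uses mainly before birth, had 8 peaks, and no call was made in either direction. By edgeR 3 of the 8 had an unadjusted p under 0.05, all in the higher direction, and DESeq2 and limma voom called 0. All 8 log2 fold changes were above 0, from 0.18 to 0.73, with a median of 0.62. The lowest, at chr14:54979897-54980489, turned to -0.07 without mutant replicate 1 and to -0.21 without wild-type replicate 2. Summed accessibility was 413 and 379.6 CPM in the mutant libraries, against 340.4 and 312 CPM in the wild-type libraries, a log2 ratio of 0.28 that rested mainly on the strongest of all 1059 members. That peak, 8311 bp wide at the facing ends of Myh6 and Myh7 (chr14:54963580-54971890), had 325 and 308 CPM in the mutant and 279.5 and 267 CPM in the wild type (log2 fold change 0.21, standard error 0.11, edgeR adjusted p = 0.245). Within 1 kb of the hairpin the log2 ratio of the sums was 0.55.

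Among the weaker Mir208b peaks, that at chr14:54971997-54972741, which also lies within Mhrt, a cardiac long noncoding RNA gene, had 20.6 and 16.1 CPM in the mutant libraries and 12.7 and 9.55 CPM in the wild-type libraries (log2 fold change 0.72, standard error 0.21, edgeR adjusted p = 0.051). It passed without mutant replicate 2 (edgeR adjusted p = 0.00326) and with cyclic loess offsets (0.0488), in a range of 0.00326 to 0.431 over the 11 alternatives. The peak at chr14:54978302-54979142 had 15.4 and 15.1 CPM in the mutant libraries and 9.62 and 9.19 CPM in the wild-type libraries (log2 fold change 0.70, standard error 0.21, edgeR adjusted p = 0.0527), and it passed without mutant replicate 2 (0.0487; range 0.017 to 0.305 over the 11 alternatives). In both peaks the mutant libraries lay above both wild-type libraries. The hairpin peak, at 16.8 and 13.9 CPM in the mutant and 13.2 and 10.1 CPM in the wild type, had a log2 fold change of 0.40 (edgeR adjusted p = 0.283). Myh6 and Myh7 are close paralogs, and how reads that match both were handled is not given in the sources used here.

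Mir499, in an intron of the slow-type myosin gene Myh7b, had 2 weak peaks and none over the hairpin. The downstream peak (chr2:155627040-155627695) had 8.09 and 8.83 CPM in the mutant libraries, against 4.53 and 5.01 CPM in the wild-type libraries, a log2 fold change of 0.83 (standard error 0.26, edgeR adjusted p = 0.0619) with no overlap between genotypes. At the upstream peak the genotypes overlapped, with 9.25 and 5.68 CPM in the mutant and 6.05 and 4.75 CPM in the wild type (log2 fold change 0.47, standard error 0.28, edgeR adjusted p = 0.352). By edgeR 1 of the 2 had an unadjusted p under 0.05, and DESeq2 and limma voom called 0.

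Per kb of peak, the order of the loci was similar in both genotypes. In the mutant the means were 30.5 CPM per kb at Mir1a-1 and Mir133a-2, 30.4 at Mir208b, 20.4 at Mir1a-2 and Mir133a-1, 19.2 at Mir208a and 16.7 at Mir499. In the wild type they were 25.03 at Mir208b, 22.6 at Mir1a-1 and Mir133a-2, 17.9 at Mir1a-2 and Mir133a-1, 16.5 at Mir208a and 10.6 at Mir499. The Mir208b values rest mainly on the wide peak at the ends of Myh6 and Myh7, 3810 bp from the hairpin. It gave on average 317 of 396 CPM in the mutant and 273 of 326 CPM in the wild type, over 8311 bp of 13.04 kb. In the mutant, neighbours that differed by less than the SD of either were Mir208b and the Mir1a-1 locus (SD 1.79 and 3.12, n = 2 each), and the Mir1a-2 locus and Mir208a (SD 2.28 and 1.29, n = 2 each). In the wild type the SD was 0.341 at the Mir1a-2 locus and 2.02 at Mir208a (n = 2 each), and the difference between them lay between these values. The locus sums of the mutant libraries lay above those of the wild-type libraries at all 5 loci. All 7 cardiomyocyte marker genes had peaks at their ends. Those 17 peaks summed to 1015 and 884 CPM in the mutant and to 856 and 819 CPM in the wild type. None of the 17 was called in either direction. Myh6 is among these marker genes, and the wide peak at its end counts both in this sum and in that of Mir208b. That peak had 325 and 308 CPM in the mutant and 279.5 and 267 CPM in the wild type. Without it, the marker sum of mutant replicate 2 no longer lay above that of wild-type replicate 1. The sums for smooth muscle and pericyte marker genes and for liver marker genes also lay higher in both mutant libraries. The 2 liver peaks summed to 23.97 and 20.95 CPM in the mutant and 17.597 and 19.87 CPM in the wild type. The endothelial, fibroblast, leukocyte, and neuron and Schwann sums overlapped between genotypes. An order with both mutant libraries higher was thus not particular to cardiomyocyte markers. The part of the cardiomyocyte marker difference in the microRNA loci was not tested.

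**Figure D3:**
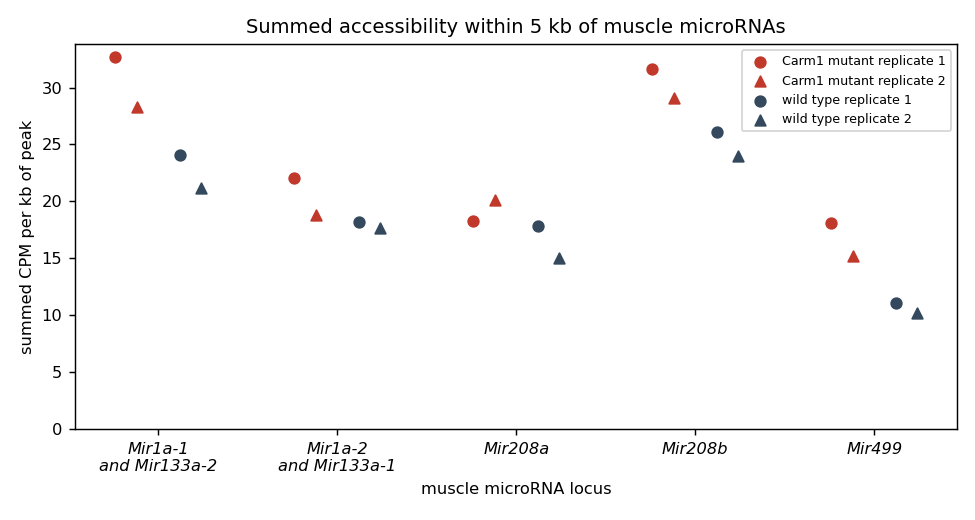
Summed accessibility of all peaks within 5 kb of each muscle microRNA locus, divided by the covered length (CPM per kb, y axis), with 1 point per library and Carm1 mutant libraries left of wild-type libraries. In the mutant libraries the Mir1a-1 and Mir133a-2 locus stands at 32.7 and 28.3 CPM per kb, against 24.1 and 21.2 in the wild-type libraries.

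Across all members, 32 peaks were higher in the mutant, 5 were lower and 1022 were not called. The higher share (3.02%) was close to the 3.05% of all peaks and is no result about these regions. The lower share was 0.472%, against 2.45% of all peaks. Both mutant libraries lay below both wild-type libraries at 147 members (13.9%), against 25.7% of all peaks, and the reverse held at 346 (32.7%), against 25.8%. The median log2 fold change was 0.08, with 652 members above 0 and 407 below, against a median of 0.00 over all peaks. No test of this difference was run.

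The lower shares are also given by distance to a gene end and by level, with no test between them. Up to 1 kb from the end of a protein-coding gene, lower calls were rare everywhere, at 1 of 358 members (0.279%) and 60 of 15281 other autosomal peaks (0.393%). Farther out they made up 4 of 701 members (0.571%) and 2059 of 70272 others (2.93%). Between 1 and 10 kb from a gene end the shares were 0.495% and 1.71%, and beyond 10 kb 0.673% and 3.45%. In 4 classes of mean CPM, divided at 3.24, 5.54 and 11.9 CPM, the lower share among members lay between 0.413% and 0.562%, and among other peaks between 2.09% and 3.08%. Each member share rests on 1 to 5 peaks.

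Peaks were also divided by distance from the hairpin. Among the 169 peaks that overlap a hairpin, 6 were higher (3.55%) and 0 lower, with 20 and 3 at an unadjusted p under 0.05 in edgeR, 1 and 0 by DESeq2, and 3 and 0 by limma voom. Within 1 kb, 16 of 360 were higher (4.44%) and 0 lower, with 46 and 15 at an unadjusted p under 0.05, 4 and 0 by DESeq2, and 10 and 0 by limma voom. From 1 to 5 kb, 16 of 699 were higher (2.29%) and 5 lower (0.715%). Upstream peaks gave 11 higher (2.64%) and 1 lower (0.240%) of 416, and downstream peaks 13 (3.35%) and 4 (1.03%) of 388. The edgeR calls stand against 3.05% higher and 2.45% lower of all peaks. No difference between the classes was tested. At the edge of the window, the 3 peaks just inside (4991 to 4998 bp) had log2 fold changes of 0.40, 0.60 and 0.02, and the 3 just outside (5001 to 5033 bp) had -0.24, 0.27 and 0.03.

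**Figure D4:**
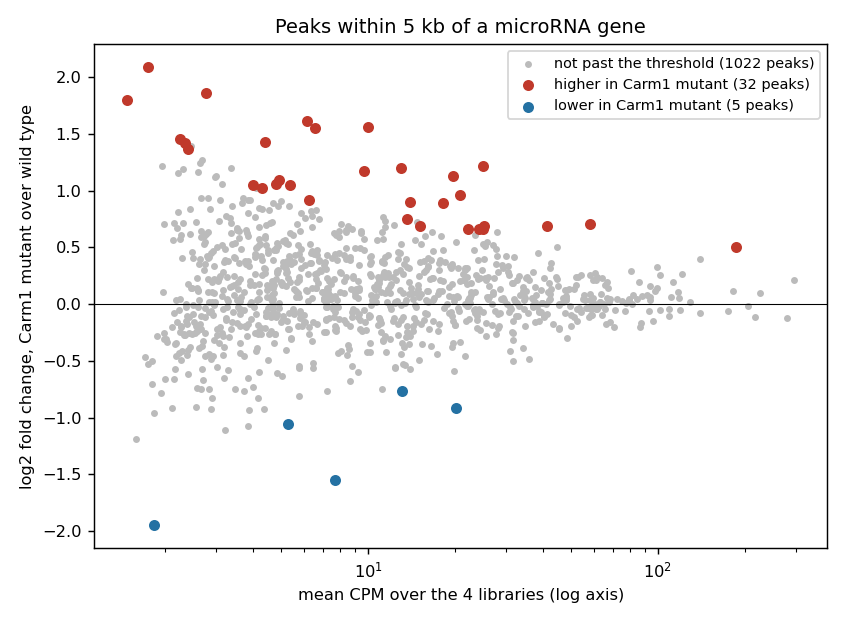
Mean level of each of the 1059 peaks (CPM, log x axis) against its log2 fold change, Carm1 mutant over wild type (y axis), with called peaks in red (32 higher) and blue (5 lower). The higher calls run from 0.51 to 2.09 and the lower calls from -1.95 to -0.76.

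The 32 higher calls had a median fold of 2.08. Inside an annotated protein-coding or long noncoding RNA gene lay 29 of them, and 851 of all 1059 members. Of the 37 calls, 36 had genotypes that did not overlap, a pattern read from the same libraries as the calls and so no separate support. The exception, named here after its values were seen, lay near Mir1953 (chr2:151962466-151962845), at 4.08 and 15.6 CPM in the mutant and 2.38 and 4.28 CPM in the wild type, and its log2 fold change of 1.55 (edgeR adjusted p = 0.0351) was 0.28 without mutant replicate 2 (0.703, the highest adjusted p of the 11 alternatives, the lowest being 2.7e-11). Leaving out wild-type replicate 2 kept 5 of the 32 higher and 1 of the 5 lower calls, leaving out wild-type replicate 1 kept 11 and 1, leaving out mutant replicate 1 kept 24 and 3, and leaving out mutant replicate 2 kept 23 and 5. Whichever library was left out, 2 higher and 0 lower calls remained. Of the 225 members that overlap a RefSeq promoter window, 4 were higher, those of Clcn4, Rassf7, Klhdc7a and Gm51811, and 0 were lower. Over all peaks 3.05% were called higher and 2.45% lower, and promoters were not tested as a class.

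The 2 calls that held without any 1 library had the smallest p. A peak within Clcn4, the gene of an endosomal chloride and proton exchanger, 775 bp downstream of Mir5620 (chr7:7299721-7300029), had 31.7 and 38.1 CPM in the mutant libraries, against 16.4 and 13.7 CPM in the wild-type libraries (log2 fold change 1.22, standard error 0.18, edgeR adjusted p = 0.000835). A peak 4698 bp from Mir6923 and 2282 bp from Myh3, the gene of the embryonic skeletal myosin heavy chain (chr11:67104573-67105079), had 17.5 and 12.4 CPM in the mutant libraries, against 4.24 and 5.88 CPM in the wild-type libraries (log2 fold change 1.56, standard error 0.25, edgeR adjusted p = 0.00198). In both peaks the lowest mutant library was well above the highest wild-type library.

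The next higher peaks by p lay within Ctnnbip1, Slc12a4 and Smurf1. Within Ctnnbip1, which encodes an inhibitor of beta-catenin, a peak 1132 bp from Mir5616 (chr4:149539054-149539996) had 27.2 and 26.8 CPM in the mutant and 13.9 and 10.9 CPM in the wild type (log2 fold change 1.13, standard error 0.19, edgeR adjusted p = 0.00219; lost without wild-type replicate 2 at 0.059, range 4.03e-07 to 0.059 over the 11 alternatives). Slc12a4, the gene of a potassium and chloride cotransporter, held 2 higher peaks near Mir7074. The farther of them, 4774 bp away (chr8:105956473-105956967), had 11.7 and 15.0 CPM in the mutant and 5.998 and 5.88 CPM in the wild type (log2 fold change 1.17, standard error 0.24, edgeR adjusted p = 0.00744; lost without wild-type replicate 2 at 0.0659, range 7.12e-05 to 0.0659). The other overlapped the hairpin, at 19.2 and 18.2 CPM in the mutant and 12.5 and 10.7 CPM in the wild type, with a log2 fold change of 0.69 (standard error 0.20, edgeR adjusted p = 0.0443, range 0.011 to 0.357 over the 11 alternatives, of which 4 kept the call). Smurf1, the gene of a ubiquitin ligase of the bone morphogenetic protein pathway, held a peak 1412 bp from Mir7039 (chr5:144898228-144899062), at 13.4 and 22.8 CPM in the mutant and 7.24 and 8.46 CPM in the wild type. Its log2 fold change was 1.203 (standard error 0.24, edgeR adjusted p = 0.00744), lost without wild-type replicate 1 (0.0534), and it was 0.77 without mutant replicate 2 (0.0419). Its adjusted p ranged from 2.37e-08 to 0.0534 over the alternatives.

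Mir148a, whose RNA is printed above, was overlapped by a higher peak (chr6:51269715-51271459). It had 33.2 and 21.8 CPM in the mutant libraries, against 13.9 and 14.3 CPM in the wild-type libraries, a log2 fold change of 0.96 (standard error 0.20, edgeR adjusted p = 0.00882). The wild-type libraries were nearly equal, and mutant replicate 1 was the highest: without it the log2 fold change was 0.63 (edgeR adjusted p = 0.0417). The call was lost without wild-type replicate 1 (0.0601) or 2 (0.0649), in a range of 5.61e-08 to 0.0649 over the 11 alternatives.

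Mir210, the microRNA best known for its induction in low oxygen, had 2 peaks. The called peak lay at an end of Rassf7, a Ras-association domain gene, 4603 bp from the hairpin (chr7:141215375-141216781), at 26.2 and 21.0 CPM in the mutant libraries and 14.1 and 11.46 CPM in the wild-type libraries. Its log2 fold change was 0.89 (standard error 0.20, edgeR adjusted p = 0.0122; lost without wild-type replicate 2 at 0.182, range 6.35e-05 to 0.182 over the 11 alternatives). The peak over the hairpin (chr7:141220456-141223139) had 57.8 and 69.5 CPM in the mutant and 51.6 and 55.1 CPM in the wild type, without overlap but with a log2 fold change of 0.26 that did not pass (edgeR adjusted p = 0.304).

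Mir23a, Mir27a and Mir24-2 form a single cluster with 5 peaks, and the called peak was again at the end of a neighbouring gene. It lay 1299 bp from Mir24-2 at Zswim4, a zinc-finger gene (chr8:84210220-84212857), with 52.0 and 49.98 CPM in the mutant libraries and 34.8 and 28.4 CPM in the wild-type libraries. The log2 fold change was 0.69 (standard error 0.15, edgeR adjusted p = 0.0122; lost without wild-type replicate 2 at 0.252, range 0.000166 to 0.252 over the 11 alternatives). The peak over the hairpins (chr8:84208451-84209625) had 8.52 and 9.28 CPM in the mutant and 11.0 and 8.26 CPM in the wild type, a log2 fold change of -0.11 (edgeR adjusted p = 0.836), so the genotypes overlapped there. At the paralogous cluster of Mir23b, Mir27b and Mir24-1 the 4 peaks had log2 fold changes between -0.04 and 0.45.

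The other 2 of the 10 higher peaks with the smallest p lay within Eif4g3 and Coro6. The Eif4g3 peak, in a translation initiation factor gene 953 bp from Mir6399 (chr4:138164245-138164641), was weak, with 5.78 and 2.90 CPM in the mutant and 1.47 and 0.929 CPM in the wild type. Its log2 fold change was 1.86 (standard error 0.41, edgeR adjusted p = 0.0128), lost without mutant replicate 1 (0.0608) and without wild-type replicate 2 (0.117), in a range of 1.19e-05 to 0.117 over the 11 alternatives. The peak in Coro6, which encodes an actin-binding coronin, 2082 bp from Mir12181 (chr11:77464541-77465436), had 16.2 and 20.2 CPM in the mutant and 8.83 and 10.7 CPM in the wild type. Its log2 fold change was 0.90 (standard error 0.21, edgeR adjusted p = 0.0171), lost without wild-type replicate 1 (0.168) or 2 (0.068), in a range of 0.000457 to 0.168. A further 17 higher peaks, at most 1 per microRNA and none near a muscle locus, had log2 fold changes between 0.66 and 2.09 (edgeR adjusted p from 0.0174 to 0.049). They include a peak within Pdgfb, a growth factor gene, 439 bp from Mir7213, at 6.81 and 6.63 CPM in the mutant and 3.62 and 2.68 CPM in the wild type (log2 fold change 1.09, edgeR adjusted p = 0.0324, range 0.00486 to 0.272 over the 11 alternatives), whose call was lost with DESeq2 and without wild-type replicate 1 or 2.

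**Figure D5:**
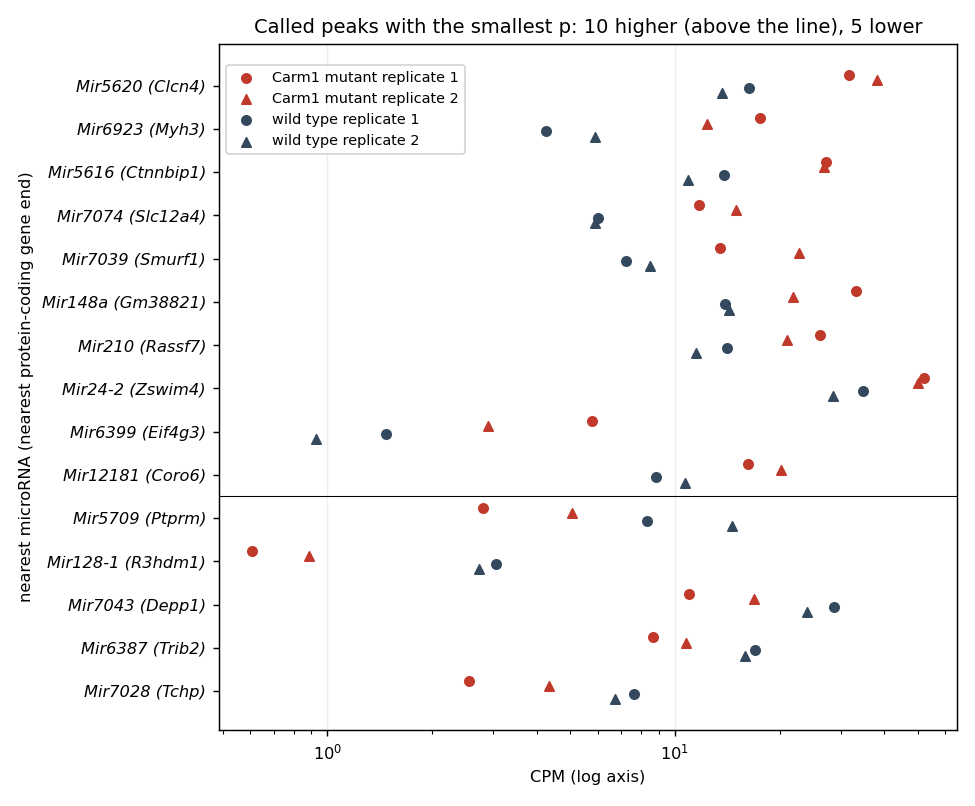
Level (CPM, log x axis) of the 10 higher peaks with the smallest p and of all 5 lower peaks in each library, with Carm1 mutant libraries in red and wild-type libraries in dark blue. Rows name the nearest microRNA and, in brackets, the protein-coding gene whose end is closest, and genotypes that do not overlap were part of how the 10 higher and 5 lower peaks were chosen.

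Of all 1059 members, 699 lay over 1 kb from a hairpin and 851 lay inside a gene. All 5 lower peaks lay over 1 kb from a hairpin, and 4 of them lay inside a gene. The weakest was within R3hdm1, 1472 bp downstream of Mir128-1 (chr1:128203902-128204166), with 0.608 and 0.883 CPM in the mutant libraries, against 3.06 and 2.74 CPM in the wild-type libraries. These levels are 10 and 14 counts in the mutant and 54 and 53 counts in the wild type. The log2 fold change was -1.95 (standard error 0.43, edgeR adjusted p = 0.012), lost without wild-type replicate 1 (0.0783) or 2 (0.0648), in a range of 0.000754 to 0.0783 over the 10 alternatives that tested it. At Mir128-2, which gives the same mature RNA from within Arpp21, the peak over the hairpin (chr9:112118334-112118923) was called in the other direction. It had 5.72 and 5.81 CPM in the mutant libraries, against 2.94 and 2.74 CPM in the wild-type libraries (log2 fold change 1.02, standard error 0.30, edgeR adjusted p = 0.0479). This call was close to the threshold. It was lost when any 1 library was left out (edgeR adjusted p from 0.0586 to 0.257), with DESeq2 (0.131), limma voom (0.056), cyclic loess offsets (0.0542), a mean CPM of at least 2 (0.0539) and total counts (0.0556), and 2 of the 11 alternatives kept it (range 0.0156 to 0.257).

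The other lower peaks were stronger. Within Ptprm, a receptor tyrosine phosphatase gene, a peak 3924 bp from Mir5709 (chr17:67021711-67022223) had 2.80 and 5.05 CPM in the mutant and 8.32 and 14.6 CPM in the wild type (log2 fold change -1.55, standard error 0.31, edgeR adjusted p = 0.00698; lost without wild-type replicate 2 at 0.145, range 4.02e-07 to 0.145 over the 11 alternatives). Within Rassf4, 1316 bp from Mir7043, a peak (chr6:116647363-116648564) had 11.0 and 16.8 CPM in the mutant and 28.6 and 23.997 CPM in the wild type (log2 fold change -0.92, standard error 0.20, edgeR adjusted p = 0.013; lost without wild-type replicate 1 at 0.132, range 8.46e-07 to 0.132). In each of these peaks both mutant libraries lay below both wild-type libraries, which was part of how they were chosen. A peak within Trib2, a pseudokinase gene, near Mir6387 had 8.64 and 10.8 CPM in the mutant and 17.0 and 15.9 CPM in the wild type (log2 fold change -0.76, edgeR adjusted p = 0.0379, range 0.00558 to 0.218 over the 11 alternatives). It was lost with DESeq2 (0.0619) and without mutant replicate 1 (0.0935), wild-type replicate 1 (0.218) or wild-type replicate 2 (0.175). A peak near Mir7028 and 132 bp from the end of Tchp, which encodes a keratin-binding centrosome protein, had 2.55 and 4.35 CPM in the mutant and 7.64 and 6.71 CPM in the wild type (log2 fold change -1.05, edgeR adjusted p = 0.0432, range 0.00203 to 0.21 over the 11 alternatives). It too was lost with DESeq2 (0.105) and without mutant replicate 1 (0.185), wild-type replicate 1 (0.21) or wild-type replicate 2 (0.132).

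The other lists of microRNAs are given by their counts, each too short to be set apart from the shares over all peaks (3.05% higher and 2.45% lower). The muscle-related list had 1 higher (2.94%) and 0 lower of 34 peaks, the Zswim4 peak described above, with 7 and 0 at an unadjusted p under 0.05 in edgeR and 1 and 0 by both DESeq2 and limma voom. Its median log2 fold change was 0.24. Mir206 and Mir133b, which are typical of skeletal muscle, shared 1 weak peak in Lincmd1 (chr1:20678052-20678365), at 3.28 and 5.11 CPM in the mutant and 2.09 and 2.99 CPM in the wild type, without overlap (log2 fold change 0.72, edgeR adjusted p = 0.234). Mir22, a microRNA abundant in heart muscle, had by contrast the third strongest peak of all members (chr11:75459345-75464081), at 218 and 247 CPM in the mutant and 207.8 and 226 CPM in the wild type, with overlapping genotypes (log2 fold change 0.10, edgeR adjusted p = 0.662).

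The endothelial and vascular list had 0 calls among 18 peaks, with 2 higher and 0 lower at an unadjusted p under 0.05 in edgeR and 0 by DESeq2 and limma voom. Mir126a and Mir126b, the endothelial microRNAs within Egfl7, had a hairpin peak of 7738 bp (chr2:26586621-26594358), with 90.3 and 102 CPM in the mutant libraries and 112 and 71.8 CPM in the wild-type libraries. The wild-type libraries stood at both extremes, and the log2 fold change was 0.06 (edgeR adjusted p = 0.864). Peaks at the ends of 5 endothelial marker genes summed to 194 and 204 CPM in the mutant and 259.8 and 177 CPM in the wild type, and 1 of the 8 peaks was called lower. Egfl7 is 1 of these genes, so this sum and the hairpin peak are not independent of each other. The sum without Egfl7 was not taken. The lowest p of the list was at Mirlet7c-2 and Mirlet7b (chr15:85704502-85706788), with 27.2 and 32.2 CPM in the mutant and 22.7 and 18.8 CPM in the wild type (log2 fold change 0.51, edgeR adjusted p = 0.0858). It passed without mutant replicate 1, in a range of 0.0103 to 0.539 over the 11 alternatives.

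For the smooth muscle microRNAs Mir143 and Mir145a, in and near the long noncoding RNA genes Carmn and Bvht, 0 of 8 peaks were called, with 4 higher and 0 lower at an unadjusted p under 0.05 in edgeR and 0 by DESeq2 and limma voom. The peak over the Mir145a hairpin had 26.2 and 21.6 CPM in the mutant libraries, against 15.6 and 17.1 CPM in the wild-type libraries (log2 fold change 0.55, standard error 0.18, edgeR adjusted p = 0.0794). That over the Mir143 hairpin overlapped, at 10.9 and 13.8 CPM in the mutant and 12.1 and 10.9 CPM in the wild type (log2 fold change 0.10, edgeR adjusted p = 0.839). The Mir145a peak passed without mutant replicate 2 (edgeR adjusted p = 0.0113), in a range of 0.0113 to 0.396 over the 11 alternatives. Of the 8 log2 fold changes 7 were above 0, with a median of 0.40. Peaks at the ends of 5 smooth muscle and pericyte marker genes summed to 66.4 and 76.0 CPM in the mutant and 61.6 and 62.3 CPM in the wild type, and their part in this was not tested.

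The fibroblast and stress list had 0 calls among 19 peaks, with 2 higher and 0 lower at an unadjusted p under 0.05 in edgeR and 0 by DESeq2 and limma voom. A peak within Vmp1 upstream of Mir21a, a microRNA raised in fibrosis and strain, had 23.2 and 44.4 CPM in the mutant and 19.9 and 23.6 CPM in the wild type. Mutant replicate 1 lay below wild-type replicate 2, and the log2 fold change of 0.63 (standard error 0.22, edgeR adjusted p = 0.0927) was 0.09 without mutant replicate 2. It passed without mutant replicate 1, in a range of 1.25e-07 to 0.812 over the 11 alternatives. The cell cycle list, which holds the Mir17 to Mir92-1 cluster and the Mir15 and Mir16 family, had 0 calls among 8 peaks, none at an unadjusted p under 0.05 in edgeR and 0 by DESeq2 and limma voom. Its median log2 fold change was 0.02. The smallest p of that list was at Smc4, a chromosome condensation gene, upstream of Mir15b and Mir16-2, with 73.2 and 65.2 CPM in the mutant and 59.0 and 64.3 CPM in the wild type (log2 fold change 0.17, edgeR adjusted p = 0.513).

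In the blood cell list 0 of 7 peaks were called, with 0 higher and 1 lower at an unadjusted p under 0.05 in edgeR and 0 by DESeq2 and limma voom. That peak, 3023 bp from Mir155, a microRNA of activated immune cells, had 3.16 and 1.77 CPM in the mutant libraries and 5.43 and 5.01 CPM in the wild-type libraries (log2 fold change -1.08, standard error 0.33, edgeR adjusted p = 0.0615). It lay 711 bp from the end of Mrpl39, a mitochondrial ribosomal protein gene. It passed without mutant replicate 1 (edgeR adjusted p = 0.00655), in a range of 0.00655 to 0.239 over the 11 alternatives. Of 5 leukocyte marker genes 1 had a peak at its end, at 82.4 and 86.7 CPM in the mutant and 84.5 and 75.6 CPM in the wild type. The single peak in the Dlk1-Dio3 cluster, within Rtl1 and near Mir127, Mir136, Mir433 and Mir434, had 5.41 and 4.16 CPM in the mutant and 4.64 and 4.44 CPM in the wild type, with overlapping genotypes (log2 fold change 0.08, edgeR adjusted p = 0.911).

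None of the 5 strongest members passed the threshold, and 4 of them lay at the end of a protein-coding gene. After the peak between Myh6 and Myh7, a peak at Rras near Mir7054 (chr7:45015312-45019487) had 250.9 and 281 CPM in the mutant and 284 and 296 CPM in the wild type (log2 fold change -0.13, edgeR adjusted p = 0.542). A peak over Mir707 at the end of Akt1s1 had 213 and 202 CPM in the mutant and 219 and 231 CPM in the wild type (log2 fold change -0.12, edgeR adjusted p = 0.585). In both peaks the mutant libraries lay below the wild-type libraries, and neither passed the test. A peak over Mir3082 at Jmjd8, 9490 bp wide, had 201 and 207 CPM in the mutant and 205 and 207 CPM in the wild type.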

How the data were processed

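ATAC-seq of heart from 2 Carm1 mutant and 2 wild-type mouse libraries was used as the authors deposited it, as raw counts of reads per peak in 1 table of 87948 common intervals. Per the labels, a commercial provider made the libraries. Per the submitters' processing notes, FastQC and Bowtie2 were used with the mm10 build. Not given in the sources used here are versions, the peak caller, read filters, the handling of duplicates and multi-mapping reads, the transposase offset and the making of the common peak set. Coordinates are the table's own, and whether starts count from 0 or 1 is not stated.

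Counts were fitted on all peaks with edgeR 4.0.16 in R 4.3.3 (TMM scaling, filterByExpr, quasi-likelihood test, genotype only). The filter removed 0 peaks, and 2 residual degrees of freedom were moderated across peaks (common biological coefficient of variation 0.166). The script was tested on simulated data for 2 mutant against 2 wild-type libraries. It recovered 4.48% of 67 changes of 1.5-fold, 31.3% of 67 of 2-fold and 75.8% of 66 of 3-fold. Changes of these sizes can therefore stay uncalled. Far fewer peaks were changed there than were called in these data, so recovery may differ. P-values were adjusted by Benjamini-Hochberg over all peaks, with a threshold of 0.05. CPM values use TMM-scaled library sizes, standard errors come from the test statistic, and SDs are over 2 libraries. Total counts were 15945420 to 19091969 per library.

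Peaks were matched to RefSeq genes of GRCm38.p6 by position, with pandas 2.3.3 and numpy 2.4.6 in Python 3.11.15. The peaks named are all those at the muscle microRNAs, the 10 called peaks with the smallest p in each direction whose genotypes do not overlap (at most 1 per microRNA gene, 5 being lower), and the smallest p of each of 10 lists. Other peaks were named after their values were seen: those of the strongest members, the hairpin peaks beside a named one, Mir206, Mir22, Mir126a, Mir1953, Mir7213, Mir128-2 and the edge of the window. The members and lists were chosen with earlier results of these data known. Alternatives were RLE, total-count and cyclic loess scaling, no filter or a mean CPM of at least 2, DESeq2 1.42.0, limma 3.58.1 voom, an adjusted p of 0.10, other windows, a replicate block, and each library left out.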

Additional observations from a re-analysis of the deposited data

How the results depend on the processing

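The count of members called higher was 32 and of members called lower 5. DESeq2 gave 14 and 3, an adjusted p of 0.10 gave 74 and 15, and cyclic loess offsets gave 39 and 8. Peaks that overlap the hairpin gave 6 and 0, the 1 kb window 16 and 0, and the 10 kb window 55 and 16, since these windows hold 169, 360 and 1793 peaks. Leaving out 1 library gave 5 to 63 higher and 1 to 18 lower, and the lone library of a genotype is then assumed to vary like the other pair. RLE factors (33 and 5), total counts (26 and 7), no filter (32 and 5), a mean CPM of at least 2 (24 and 4) and limma voom (25 and 5) stayed within 1.5 times, the lower counts included. Total counts moved the median log2 fold change of all peaks to -0.04 and of members to 0.04, and lowered the higher share of all calls to 48.5%, against 55.4%. With replicate number as a block the counts were 80 and 16. The labels do not say that a number pairs libraries, and the deviations of same-numbered libraries correlated at 0.107 over 2 pairs, which does not settle it. The block called 9 of the 35 muscle peaks higher. For the 37 called peaks, all listed peaks and the 5 strongest (167 peaks), 1685 values under the alternatives stayed on their side of the threshold, 118 lost the call, 29 gained it and 0 reversed a call. Under the block, 12 of these peaks gained a call, among them the Mir1a-1, Mir208b, Mir499, Mir1b, Mir145a, Mirlet7c-2, Mir21a and Mir155 peaks described as close to the threshold or smallest in p, and 0 lost it. The log2 ratio of summed CPM became 0.55 for Mir208b within 1 kb, against 0.28, and 0.30 for Mir499 within 10 kb, against 0.65, and within 1 kb Mir499 has no peak. With 2 libraries per genotype, 1 library decides many calls, and weak peaks rest on few counts.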
